A study of Mus musculus with 2 samples.

Results

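Oxidative phosphorylation subunit genes were taken as the probes whose gene symbol in the array's annotation starts with Ndufa, Ndufb, Ndufc, Ndufs, Ndufv, Uqcr, Cox4 to Cox8 or Atp5, or is Sdha, Sdhb, Sdhc, Sdhd, Cyc1 or Cycs. The rule found 83 of 29922 gene probes, for 72 of 16637 genes, and no probe carried the symbol Cycs. Of those genes, 6 matched by name but encode no subunit of a finished complex (Ndufaf1, Ndufaf2, Dmac2, Dmac2l, Cox7a2l and Emc8, which the platform lists as Cox4nb) and are described apart. The other 66 were placed in complex I (31 genes), complex II (4), complex III (7), complex IV (15) and complex V (9). Ndufa4, named after complex I, was placed in complex IV, to which it is now assigned.

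These subunits are made from nuclear genes and assembled in the inner mitochondrial membrane. Complexes I and II pass electrons from NADH and succinate to ubiquinone, complex III passes them on to cytochrome c, complex IV hands them to oxygen, and the proton gradient built on the way drives ATP synthesis by complex V. Mitochondria are known to multiply as preadipocytes turn into fat cells, and several complex IV subunits exist as a general form and a form restricted to muscle, brown fat, testis or lung.

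The cells were mouse embryonic fibroblasts, labelled as lacking Xbp1, which encodes a regulator of the response to unfolded proteins, so by the labels both groups share that genotype. Total RNA of 1 culture sample was labelled with Cy5 on day 0, when the cells were confluent, and of 1 on day 3, after 72 h of induction. The induction medium held insulin at 10 µg/ml, troglitazone at 5 µM, IBMX at 0.25 mM and DXM at 5 µM. The design asks how expression on day 3 stands against day 0, and no cells with a working Xbp1 gene were analysed here. The labels name neither the strain nor the number of embryos behind the cells. There was 1 array per day, so the differences below are without a check by replicates, and no test was run. Signals are quantile-normalized intensities, and differences are log2 values, day 3 minus day 0. In bulk RNA, fewer cells with a transcript and less transcript per cell cannot be told apart.

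Before normalization, gene probes had a median intensity of 78 at day 0 and 166 at day 3. Detected means a signal above the gene probes' median, 122, on either day, which held for 10656 genes. Xbp1 itself gave 20936 on day 0 and 13561 on day 3, and where its probe lies relative to the deletion is unknown here, so it does not check the label. All 11 fibroblast markers were detected on both days, with summed signals of 275789 and 252298, though Dcn was saturated on both days and Vim on day 0. Single markers differed in both directions. Fn1 (3789 and 15748) and Lum (218 and 662.5) were at least 2-fold higher on day 3 (18.2%, against 12.8% of all detected genes). S100a4 (57839 and 19600.5) and Col1a1 (12227.5 and 5849.5) were at least 2-fold lower (18.2%, against 10.3%). None of 6 fat cell markers on the array exceeded the threshold (summed signals 77.5 and 299). Among them Adipoq gave 12 and 120.5, just under it on day 3, Fabp4 10.5 and 59.5, Cidec 12 and 52.5, and Plin1 21.5 and 44, while Cfd gave 15.5 and 7.5. Of 7 leukocyte markers 4 were detected. Cd14 (16036 and 39698.5), Itgam (703.5 and 3556) and Cd68 (198.5 and 268) were higher on day 3, and Csf1r (269.5 and 51.5) was lower. Lyz2 gave 66 and 13.5, and Ptprc, which defines leukocytes, was at the floor of 10 on both days (summed signals of the list 17277.5 and 43599.5). Summed signals were 456 and 578.5 for 5 epithelial markers (2 detected), 480.5 and 673 for 5 endothelial markers (2 detected) and 506 and 1034.5 for 6 skeletal muscle markers, of which only Des was detected. The part of other cell types in the differences below was not tested.

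Most subunit genes had close to the same signal on both days. Of the 66 genes, 60 were detected, all 60 of them on both days, and 51 of the 60 (85.0%) differed by less than 1.5-fold, against 54.8% of all detected genes. That count includes Cox8a, saturated on both days and so of unknown difference, and Cox4i1, saturated on day 3. Without Cox8a it was 50 of 59 (84.7%). The median difference was -0.01, beside 0.03 for all detected genes, with 29 genes above 0 and 31 below. Only 4 of the 60 were at least 1.5-fold higher on day 3, against 24.1% of all detected genes, and 5 were at least 1.5-fold lower, against 21.0%. At 2-fold, 1 was higher (background 12.8%) and 1 was lower (background 10.3%), both of them restricted isoforms of complex IV. The typical size of a difference, as the median of its absolute value, was 0.20 for subunits and 0.52 for all detected genes.

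Subunit genes gave bright signals, with a median of 13.2 on the log2 scale, and bright genes differ less between these arrays. Among the 5328 detected genes brighter than the median gene, which hold 54 of the 60 subunit genes, 18.8% were at least 1.5-fold higher and 18.1% at least 1.5-fold lower. Of those 54 subunit genes 3 were higher and 3 lower. At 2-fold, 1 of the 54 was higher (background 8.20%) and 0 were lower (background 7.47%). Among the 2664 brightest genes the backgrounds at 1.5-fold were 16.6% and 16.4%, and 2 of 46 subunit genes were higher and 2 lower. At 2-fold the backgrounds there were 7.28% and 6.49%, and 0 of the 46 were higher or lower.

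**Figure D1:**
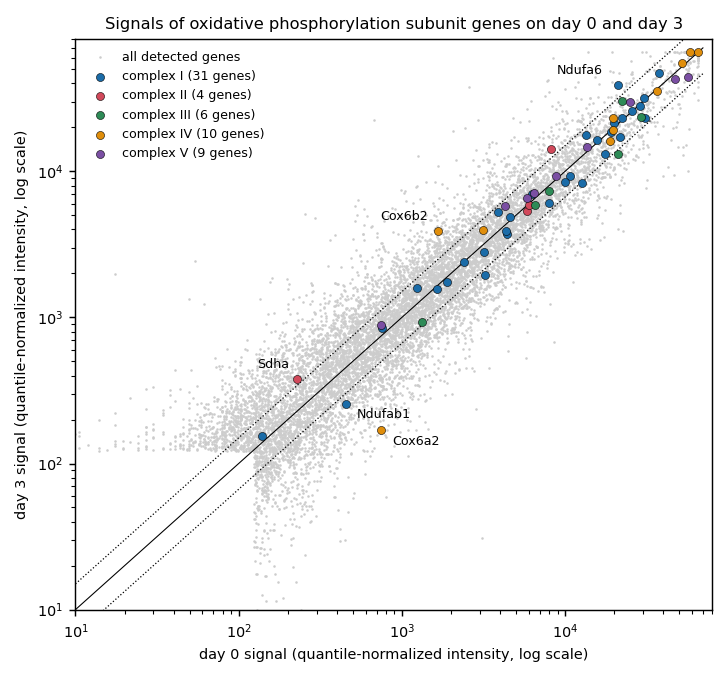
Quantile-normalized signal on day 3 (vertical, log scale) against day 0 (horizontal, log scale) for all detected genes (grey) and the 60 detected subunit genes, coloured by complex, with the line of equal signal and dotted lines at 1.5-fold. Of the 60 coloured points 51 lie between the dotted lines, and Cox6a2 (748.5 and 169) and Cox6b2 (1661 and 3930) lie farthest outside.

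Control features printed as 5 or 6 spots gave the technical error of a single-spot difference. By the median feature this SD was 0.42 at log2 signals from 6 to 8 and 0.34 from 8 to 10, then 0.45 up to 12 and 0.35 up to 16. A pooled SD, which weighs the noisier features more, was 0.62, 0.80, 0.87 and 0.86 in the same ranges. Of the 60 subunit genes 42 differed by less than the smaller estimate (70.0%, against 39.1% of all detected genes; 41 of 59 without Cox8a). Only Cox6a2, Cox6b2, Ndufa6 and Ndufab1 differed by more than the pooled estimate (6.67%, against 32.7%). These backgrounds are not matched for signal. Among the 5328 brighter genes, 72.2% of the subunit genes differed by less than the smaller estimate, against 48.0% of genes. There 3.70% of the subunit genes differed by more than the pooled estimate, against 20.6% of genes. This error is that of spots on 1 array and holds nothing of how cultures or RNA preparations vary.

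Complex I, the NADH dehydrogenase, was the largest group, with all 31 genes detected and a median difference of -0.03. Of these, 1 was at least 1.5-fold higher (3.23%, against 24.1% of all detected genes) and 3 were lower (9.68%, against 21.0%). Ndufa6, an accessory subunit, gave 21185 on day 0 and 38879 on day 3, 1.84-fold higher (0.88). It stands alone at the upper end, since the next genes, Ndufa3 (3868 and 5261, 0.44) and Ndufb4 (13399 and 17781, 0.41), were within 1.5-fold. At the other end, Ndufab1, the mitochondrial acyl carrier protein that also serves as a subunit, gave 454 and 256.5 (-0.82). Its other probe gave 393.5 and 192.5 (-1.03), so both were lower on day 3. Ndufs3, a core subunit of the arm that faces the matrix, gave 3255 and 1956 (-0.74). Ndufa9, which lies near the ubiquinone site, gave 12734 and 8342 (-0.61).

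The 6 core subunits measured, those that carry flavin, iron-sulfur clusters or the ubiquinone site, had a median of -0.05 and the 25 accessory subunits a median of -0.03. Among the core subunits Ndufv1, which holds the flavin, gave 22256 and 23045 (0.05), Ndufv2 gave 6304 and 7007 (0.15) and Ndufs1 gave 761 and 841 (0.14). Ndufs8 (4344 and 3891, -0.16) and Ndufs7 (9965 and 8415, -0.24) were slightly lower on day 3. All 5 differ by less than the smaller repeat-spot SD, so Ndufs3 was the only core subunit beyond it.

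Among accessory subunits, the 9 Ndufb genes, which belong to the membrane arm, ran from -0.38 (Ndufb7, 7932 and 6088) to 0.41 (Ndufb4). None of the 9 reached 1.5-fold. Between these ends were Ndufb8 (-0.32, and 0.24 by its other probe), Ndufb5 (-0.22), Ndufb2 (-0.17), Ndufb11 (-0.11), Ndufb9 (-0.06), Ndufb3 (0.08) and Ndufb10 (0.35). The 12 Ndufa genes spread more widely, from -0.82 to 0.88. Those not yet named were Ndufa10 (17612 and 13140, -0.42, and -0.57 by its other probe), Ndufa7 (30954 and 23330, -0.41), Ndufa8 (-0.25), Ndufa1 (-0.04), Ndufa13 (0.02), Ndufa12 (0.07), Ndufa5 (0.10) and Ndufa2 (37489 and 47087, 0.33). Ndufc1 (-0.01), Ndufc2 (0.16), Ndufs4 (-0.03) and Ndufs5 (0.06) were all but level.

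Complex II, succinate dehydrogenase, works in both the citric acid cycle and the respiratory chain, and its 4 genes split evenly. Sdhc, a membrane anchor, gave 8233 on day 0 and 14166 on day 3, 1.72-fold higher (0.78). Its other probe gave 2686 and 3963 (0.56), the same direction. Sdha, the flavoprotein that oxidizes succinate, gave 226.5 and 380.5, 1.68-fold higher (0.75) from signals not far above the threshold. The iron-sulfur subunit Sdhb (5843 and 5346, -0.13) and the other anchor, Sdhd (5985 and 5903, -0.02), differed by less than the smaller repeat-spot SD of 0.35. The complex median of 0.36 therefore lies between a pair of level genes and a pair of higher ones.

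Complex III, the cytochrome bc1 complex, had 6 detected genes, 5 of them below 0, and a median of -0.22. Cyc1, which encodes cytochrome c1, gave 21037 and 13208, a 1.59-fold lower signal on day 3 (-0.67). The Rieske iron-sulfur protein gene Uqcrfs1 gave 1333 and 936 (-0.51). The core protein genes Uqcrc2 (29065 and 23511, -0.31) and Uqcrc1 (6521 and 5925, -0.14) were nearer to level. The signs of these 4 genes were negative in each normalization tried, with alternatives reaching from -0.93 to -0.10. Of the small accessory subunits, Uqcr11 (listed as Uqcr) gave 8031 and 7294 (-0.14). The hinge protein gene Uqcrh went the other way, with 22453 and 30171 (0.43). Uqcrq stayed below the threshold on both days, with 83 and 72.5, and gets no fold.

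In complex IV, cytochrome c oxidase, the general subunits with a measured difference were near level, and the 2 restricted isoforms that were detected held the widest differences of all subunit genes. The 6 general genes not saturated on either day ran from -0.21 (Cox5a, 18812 and 16244) to 0.33 (Cox7a2, 3135 and 3940), all within 1.5-fold. Ndufa4 gave 19601 and 23371 (0.25), Cox6a1 gave 52232 and 55159 (0.08, and 0.18 by its other probe), Cox6b1 gave 19752 and 19239 (-0.04, and 0.33) and Cox7b gave 36450 and 35617 (-0.03). Cox4i1 gave 58556 and was saturated on day 3 at 65477, a bound of at least 1.12-fold higher under quantile normalization. It came to -0.26 under median scaling and -0.33 with no normalization, so its direction is not settled. Cox8a was saturated on both days, so its difference is unknown, and without it the median of complex IV was 0.08 in place of 0.04.

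Of these restricted isoforms 7 were on the array. Cox6b2, the testis form of subunit VIb, gave 1661 on day 0 and 3930 on day 3, 2.37-fold higher (1.24), while its general counterpart Cox6b1 was level. Cox6a2, the heart and skeletal muscle form of subunit VIa, gave 748.5 and 169, 4.43-fold lower on day 3 (-2.15), while Cox6a1 was level. Each isoform was measured by a single probe. The other 5 stayed below the threshold on both days and get no fold: the lung form Cox4i2 (9 and 1.5), the muscle and brown fat forms Cox7a1 (54 and 98) and Cox8b (2 and 8.5), and Cox7b2 (21.5 and 3) and Cox8c (7 and 18). Besides Des (389 and 912), the skeletal muscle markers Myod1, Myog, Ckm, Acta1 and Myf5 were below the threshold on both days.

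Complex V, the ATP synthase, held no gene past 1.5-fold among its 9, and 7 of the 9 were above 0 (median 0.14). The direction depends on the scaling, since with no normalization only Atp5j and Atp5k were above 0, 2 of 9, and Atp5b, at -0.62, was past 1.5-fold. In the F1 head, the catalytic beta subunit Atp5b gave 57050 and 44292, the lowest difference of the complex (-0.37). The alpha subunit Atp5a1 gave 13561 and 14786 (0.12), and the stalk subunits Atp5d (5835 and 6622, 0.18) and Atp5e (6439 and 7079, 0.14) were close to it. The gamma subunit Atp5c1 gave 47136 and 42950 (-0.13). Its other, dimmer probe gave 201.5 and 633.5 (1.65), so the 2 probes of this gene disagree. The 4 genes of the Fo part were all above 0, with Atp5k at 4290 and 5780 (0.43), Atp5g3, a gene for the proton-driven c ring, at 25128 and 30015 (0.26), Atp5j at 742.5 and 887 (0.26) and Atp5pb (listed as Atp5f1) at 8779 and 9327 (0.09). Under other scalings Atp5pb came to as little as -0.17, and Atp5g3 to just below 0.

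**Figure D2:**
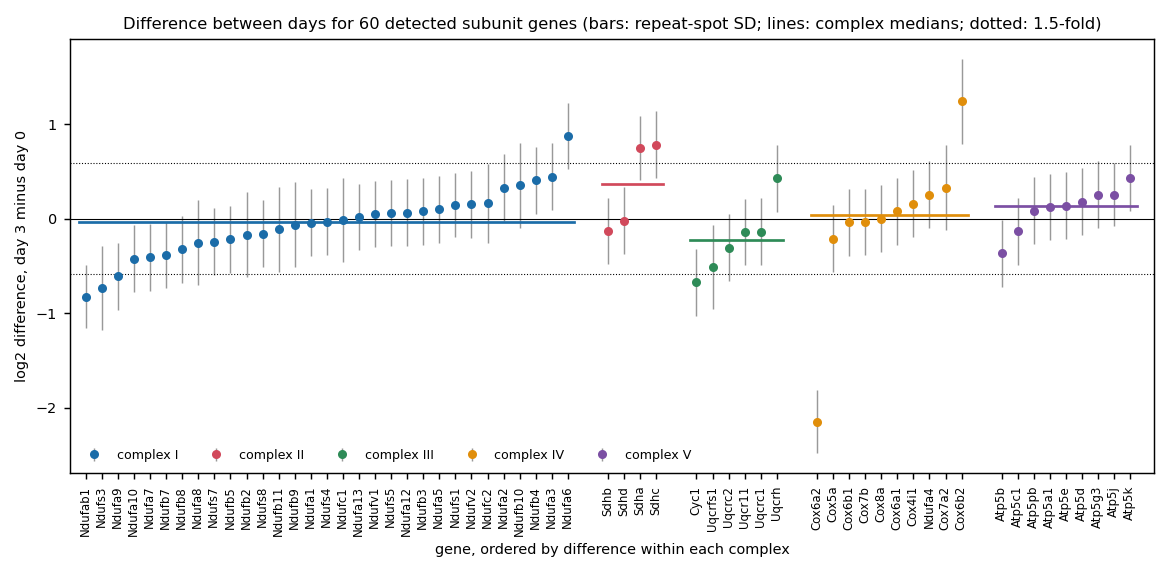
Log2 difference, day 3 minus day 0 (vertical), of each of the 60 detected subunit genes (horizontal, ordered within complexes I to V); bars show the repeat-spot SD from the median control feature, coloured lines the complex medians and dotted lines 1.5-fold. Beyond the dotted lines are 9 genes, 4 above (Ndufa6, Sdhc, Sdha and Cox6b2) and 5 below (Ndufab1, Ndufs3, Ndufa9, Cyc1 and Cox6a2).

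The complexes therefore lay in the order III (-0.22), I (-0.03), IV (0.04), V (0.14) and II (0.36) by their medians. The ranges overlap: complex III ran from -0.67 to 0.43, complex I from -0.82 to 0.88, complex IV from -2.15 to 1.24, complex V from -0.37 to 0.43 and complex II from -0.13 to 0.78. With 1 array per day and these ranges, the complexes cannot be told apart, including those at the ends of that order. Complex II had the highest and complex III the lowest median in the main setting and in all 9 alternatives, with complex II between 0.13 and 0.39 and complex III between -0.47 and -0.14. The medians of complexes I, IV and V changed sign between settings, from -0.24 to 0.04, -0.27 to 0.14 and -0.11 to 0.20. The 4 genes of complex II and the 6 of complex III are few, and the differences between complexes were not tested.

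**Figure D3:**
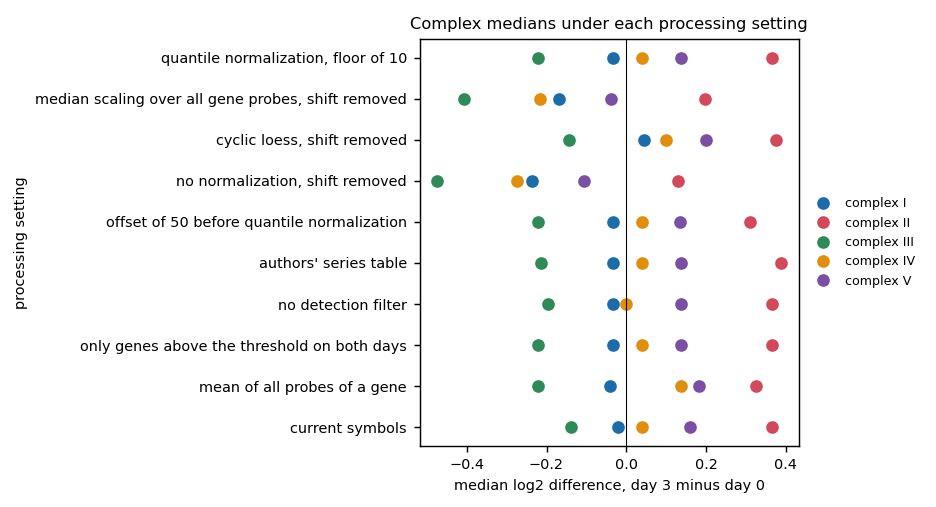
Median log2 difference, day 3 minus day 0 (horizontal), of the detected genes of complexes I to V (coloured points) under each processing setting (vertical). In each row complex III is leftmost and complex II rightmost, while the other 3 complexes lie on either side of 0 depending on the setting.

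The 6 genes that matched the rule by name alone ranged from -0.93 to 0.79. Emc8, of a protein insertion complex of the endoplasmic reticulum, gave 3633 and 1911 (-0.93). Cox7a2l, which promotes the joining of complexes III and IV into supercomplexes, gave 3369 and 5824 (0.79). The complex I assembly factors Ndufaf1 (6131 and 4271, -0.52) and Ndufaf2 (listed as Ndufa12l, 4700 and 3248, -0.53) were lower by nearly the same amount. Dmac2 gave 0.33 and Dmac2l 0.26. Matching current symbols in place of the platform's added 3 subunit genes, all detected and all above 0: Ndufv3 of complex I (14191 and 19850, 0.48), Uqcr10 of complex III (35930 and 43526, 0.28) and Atp5mpl of complex V (17526 and 24052, 0.46). With them 4 of 63 genes were at least 1.5-fold higher and 5 lower, and the median was 0.02.

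Genes that build the complexes included several with at least 2-fold lower signal on day 3. Of 13 complex I assembly factors on the array 11 were detected, 4 of them (36.4%) at least 1.5-fold lower, against 21.0% of all detected genes, and 0 higher, against 24.1%. The median was -0.52, and 4 to 6 were lower over the settings. Ndufaf4 gave 11902 on day 0 and 2822 on day 3, 4.22-fold lower (-2.08). Acad9, an assembly factor related to fatty acid dehydrogenases, gave 2751 and 1116 (-1.30, and -1.05 by its other probe). Ecsit gave 1624 and 827.5 (-0.97) and Foxred1 1392 and 840 (-0.73). Ndufaf3 was the highest of the list at 0.33 (3049 and 3823), but its other probe gave 345 and 296.5 (-0.22).

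Of 25 detected assembly factors for complexes II to V, 5 were at least 2-fold lower (20%, against 10.3% of all detected genes) and 0 were 2-fold higher, although the median was 0.00 (-0.24 to 0.00 over the settings). The 5 came to 2 with the offset of 50, 3 under median scaling and 3 in the authors' deposited table. Of these, Cox10 (4910 and 2213, -1.15) and Cox15 (2415 and 1201, -1.01) make the heme A of complex IV, and Sco1, which delivers its copper, gave 573.8 and 264 (-1.12). Taco1, which promotes translation of a mitochondrially encoded complex IV subunit, gave 344 and 154.5 (-1.15). Tmem70, needed for ATP synthase, gave 3209 and 1387 (-1.21), and its other probe -0.57. Other assembly factors of complex IV were level, among them Cox11 (0.00), Cox19 (0.03) and Surf1 (-0.07). Sdhaf4 of complex II gave 1032 and 1841 (0.83), the highest of the list. Atpaf1, for ATP synthase, was undetected on day 0 and came out at least 1.43-fold higher.

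Over both assembly lists 7 of 36 detected genes (19.4%) were at least 2-fold lower, beside 10.3% of all detected genes, and 0 of 36 were 2-fold higher, beside 12.8%. With the offset of 50 the 7 came to 4. At 1.5-fold 9 of 36 (25%) were lower, near the background of 21.0%, and 2 (5.56%) were higher, beside 24.1%. Of those 2, Atpaf1 was undetected on day 0, and its bound of at least 1.43-fold does not show that it reached 1.5-fold. Among the 5328 brighter genes 5 of 28 assembly factors (17.9%) were 2-fold lower, beside 7.47% of genes. Among the 60 subunit genes 1 was 2-fold lower. The difference between subunits and assembly factors was not tested, and 7 genes are few.

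Among regulators of respiratory genes, of 14 detected genes 4 were at least 1.5-fold lower (28.6%, near the background of 21.0%) and 1, Polg2, was higher (709.5 and 1239, 0.80; 7.14%, background 24.1%). The median was -0.18, from -0.47 to -0.09 over the settings. The count of lower genes was 2 in the authors' deposited table and 6 under median scaling, with no normalization and with the mean of all probes. The PGC-1 related coactivator Pprc1 gave 581.5 and 247 (-1.24), Gabpb1, a partner of the ETS factor GABPA, gave 479 and 213.5 (-1.17), and the coactivator Ppargc1b gave 283 and 137 (-1.05). Tfb1m, which modifies mitochondrial ribosomal RNA, gave 337 and 179 (-0.91). Within 1.5-fold were Ppargc1a (263 and 247, -0.09), Nrf1 (998.5 and 1274, 0.35) and Esrra (1761 and 2341, 0.41). Gabpa gave 1534 and 1280 (-0.26), but its other, dimmer probe gave 319.5 and 70.5, below the threshold on day 3, and the mean of both was -1.22. No probe carried the symbol Tfam.

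Enzymes and carriers around the chain mostly differed by less than 1.5-fold. Of 13 citric acid cycle genes 11 (84.6%) differed by less than 1.5-fold, against 54.8% of all detected genes. That count includes Mdh2 (56331.5 and 65475.5), saturated on day 3, so its difference of 0.22 is only a bound. Ogdh was higher (1331 and 2384, 0.84) and Sucla2, a subunit of succinyl-CoA ligase, was lower (877 and 299, -1.55). Citrate synthase, Cs, gave 14918 and 17931 (0.27). Among 11 genes of ubiquinone synthesis, Coq8b gave 715.5 and 1403 (0.97), Coq7 8438 and 4155 (-1.02), and Pdss1, which helps make the isoprenoid tail, was at least 3.42-fold lower, with a day 3 signal under the threshold. The 5 detected carrier and channel genes lay between -0.46 (Vdac2) and -0.05 (Vdac1), with the phosphate carrier Slc25a3 at -0.23 and the ADP/ATP carrier Slc25a4 at -0.08. Ucp1, which lets brown fat mitochondria leak protons, stayed under the threshold (59 and 38.5).

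**Figure D4:**
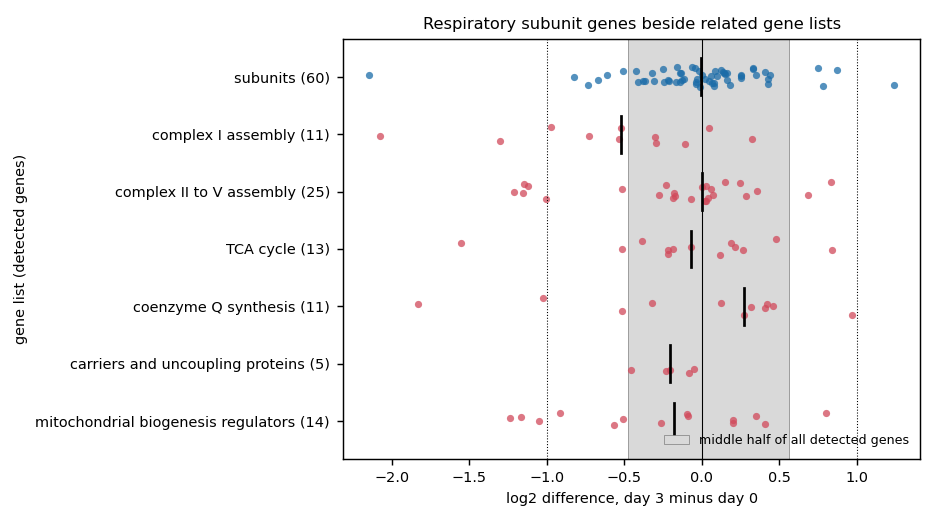
Log2 difference, day 3 minus day 0 (horizontal), of each detected gene (points) in the subunit set and in 6 related lists (vertical, with the number of detected genes), with list medians as black lines, 2-fold as dotted lines and the range from the lower to the upper quartile of all detected genes, -0.47 to 0.56, in grey. Subunit genes crowd near 0 (median -0.01), and the assembly lists hold 7 genes beyond 2-fold toward day 0 and 0 beyond 2-fold toward day 3.

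Nuclear genes for the respiratory chain are known to be controlled in part through NRF1 and ETS factors, so the promoters of the members were searched for the core letters of both sites. Windows of 300 bases, 250 before the transcription start and 50 after it, came from RefSeq on build GRCm38.p6 and were found for 51 of the 60 detected subunit genes. The letters GCATGCGC (NRF1 core, either strand) were present for 7 of the 51 genes (13.7%), against 3.05% of 27025 genes and 2.71% of all 32851 windows. The letters CCGGAAG (ETS core, either strand) were present for 13 of 51 (25.5%), against 9.93% of genes and 8.86% of windows. The 27025 background genes were not limited to detected or bright genes, unlike the members. Whether the higher shares are particular to subunit genes was therefore not tested. The NRF1 core can overlap its own reverse complement, and each gene was counted once per motif. The median difference between days was -0.13 for genes with the NRF1 core and -0.01 for the 44 without it, and -0.02 for genes with the ETS core and 0.00 for the 38 without. Each match describes letters in a window and not a bound site.

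The 250 bases before the start of the 3 genes with a match that differed most between the days are shown, 5′ to 3′, with matched letters in capitals. Ndufa6 lies at chr15:82354292-82354541, Ndufs3 at chr2:90904722-90904971 and Atp5k at chr5:108434400-108434649, all on the minus strand, and the differences were 0.88, -0.74 and 0.43.
Ndufa6: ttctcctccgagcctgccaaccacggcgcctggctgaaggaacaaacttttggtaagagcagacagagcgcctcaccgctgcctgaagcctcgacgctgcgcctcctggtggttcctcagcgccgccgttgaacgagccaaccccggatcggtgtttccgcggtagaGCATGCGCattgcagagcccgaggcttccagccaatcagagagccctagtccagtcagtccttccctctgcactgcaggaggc
Ndufs3: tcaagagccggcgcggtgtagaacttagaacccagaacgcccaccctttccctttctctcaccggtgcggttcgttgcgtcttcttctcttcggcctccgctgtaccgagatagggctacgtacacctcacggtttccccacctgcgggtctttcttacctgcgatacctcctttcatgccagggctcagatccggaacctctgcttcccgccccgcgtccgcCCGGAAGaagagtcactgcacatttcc
Atp5k: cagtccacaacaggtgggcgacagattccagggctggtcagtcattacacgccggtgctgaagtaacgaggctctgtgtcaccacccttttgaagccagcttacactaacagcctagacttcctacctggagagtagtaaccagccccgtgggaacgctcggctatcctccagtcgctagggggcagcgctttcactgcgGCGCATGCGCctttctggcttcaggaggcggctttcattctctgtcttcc
The capitals mark the NRF1 core in Ndufa6, starting 83 bases before the transcription start, the ETS core in Ndufs3, starting 27 bases before it, and in Atp5k the NRF1 core on both strands, overlapping, from 50 bases before it.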

How the data were processed

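The authors deposited 1 linear fluorescence intensity per spot for each array, with no normalization between arrays. Background appeared to be subtracted already, since the 7402 empty spots had a median of 0 on both days; how the images were read is not stated in the labels. Per the labels' protocols, 1 µg of total RNA was amplified and labelled by Phalanx. The authors' deposited table for the series held processed intensities for 11482 gene probes and served as an alternative. Its scale was linear, with medians of 1414 on both days and no sign of centring, and within each day its order matched the per-sample values (Spearman's rho of 1).

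The 29922 gene probes were quantile normalized (limma 3.58.1, R 4.3.3), set to 10 where lower, and converted to log2. Each gene was represented by its probe of highest mean log2 signal. Intensities of 65000 or more were treated as saturated, and folds against a saturated or undetected signal are lower bounds. Platform symbols were updated through RefSeq's GRCm38.p6 gene table. Probe sequences and positions were not analysed here, so signal from near-identical gene copies cannot be told apart. The number of arrays limits the precision. The quantile normalization was tested on simulated arrays with less noise than the repeat spots showed and with few changed probes. The repeat-spot SD was tested on simulated spots, and the fold counts on made-up values. Detection, the choice of probe and the promoter search were not tested on simulated data.

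The members, gene lists and folds of 1.5 and 2 were chosen with earlier results of these data known. All members are named, and in the other lists up to 3 genes with the largest differences plus 6 regulators; any further gene there was chosen after its values were seen. Alternatives were median scaling, cyclic loess with 3 iterations, no normalization, an offset of 50, the authors' table, no filter, detection on both days, the mean of all probes and current symbols.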

Additional observations from a re-analysis of the deposited data

How the results depend on the processing

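No paired analysis was possible because each day had 1 sample and the labels carry no replicate numbers. Of 90 summary values under 9 alternatives, 84 stayed within the repeat-spot SD of 0.35 or, for counts, within 1.5 times. That SD is of a single-spot difference and is a wide limit for a median over many genes. Detection on both days could change nothing, since every detected subunit gene met it. Median scaling and no normalization, once the shift was removed, differ by close to a constant. The count of 84 therefore says little about how stable the values are. The median of all subunit genes lay between -0.24 and 0.07. The number at least 1.5-fold lower, 5 as reported, was 8 under median scaling, 11 with no normalization and 3 under cyclic loess, each after removing the shift of the median of all detected genes (-0.49, 0.67 and -0.01). Shares of all detected genes under these settings are not given, so counts under the alternatives have no background beside them. The number at least 2-fold higher was 2 with no normalization, where 61 genes were detected, and 2 under cyclic loess, where Ndufa6 (1.02) joined Cox6b2, and the number 2-fold lower was 2 with no detection filter. Of 863 values of single genes under alternatives, 840 stayed within their repeat-spot SD and 0 genes past 1.5-fold changed sign. Ndufa6, Sdha, Cox6b2, Cox6a2, Ndufab1 and Ndufs3 were past 1.5-fold in all 6 settings run for them. Cyc1 (-0.58) and Ndufa9 (-0.55) missed it under cyclic loess, and Sdhc (0.52) with no normalization. With the mean of all probes Atp5c1 was 0.76 and Gabpa -1.22. The number of assembly factors 2-fold lower ran from 4 of 36 (offset of 50) to 9 of 41 (no detection filter), and 1 was 2-fold higher under median scaling and with no normalization. The causes of these changes were not tested. Signals near the threshold of 122, such as those of Ndufc2, and saturated ones, such as Cox8a, limit what the arrays show.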

Other observations

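The 9 subunit genes with more than 1 detected probe give a second view of the error. The difference between days disagreed between the 2 brightest probes of a gene by a median of 0.21, against 0.58 over the 1968 genes of the array with at least 2 detected probes. Those genes were not matched to the subunit genes for signal, so whether the smaller gap is particular to subunits was not tested. The gap was 0.10 for Cox6a1, 0.15 for Ndufa10, 0.17 for Ndufa5 and Ndufs4, 0.21 for Ndufab1, 0.22 for Sdhc, 0.37 for Cox6b1, 0.56 for Ndufb8 and 1.79 for Atp5c1. In Ndufab1, Sdhc, Ndufa10, Cox6a1 and Ndufs4 both probes gave the same sign, and in Atp5c1, Ndufb8, Cox6b1 and Ndufa5 they did not.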
